A study of Ailuropoda melanoleuca with 25 samples.

Results

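Scaffold HIC_ASM_0 of the giant panda (Ailuropoda melanoleuca) gene models carries, at the end of its model numbers, a block of 140 models numbered 2000 to 2255, out of 22924 models in all. A model belongs to the block when its identifier is evm.model.HIC_ASM_0 followed by a number in that range. The members were selected on measured RNA levels in these same libraries, because the block stood lower in some of the induced pluripotent stem cell (GPiPSC) groups. For differences between GPiPSC groups, the counts of called members and the values of single members are therefore a description of that choice, and nothing is read from them. The 1325 models of the same scaffold numbered below 2000 served as the comparison, and 4 models numbered above the range (2256, 2257, 2260 and 2261) summed to 11, 10, 10 and 51 counts over the 25 libraries. Another 14 models of the scaffold have a suffixed or merged identifier and entered neither set.

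The study reprogrammed primary fibroblasts (PF) into GPiPSC with non-integrating episomal vectors and sequenced RNA in 25 libraries of 12 groups. The fibroblast groups are LB PF and XR PF, with 2 libraries each. The established lines are LB GPiPSC, with 3 libraries, and XR GPiPSC, with 2. The reprogramming course is sampled at stage I day 8, stage I day 24 and stage II day 8, and a day 16 pair compares a control with A83-01, each with 2 libraries. A83-01 inhibits the receptor kinases that carry TGF-beta and activin signals. The remaining groups, of 2 libraries each, are BACL LB GPiPSC and, with no line named, BACL control and BACL-CHIR99021. CHIR99021 inhibits glycogen synthase kinase, which holds Wnt signalling down. What LB, XR and BACL mean is not explained, and no LB or XR is given for BACL control, BACL-CHIR99021 or the stage and day 16 groups. All 25 samples carry primary fibroblast cells as their source, and nothing says whether replicates came from separate cultures or how many lines or clones they represent, so the p-values speak only to the spread among these libraries, which may be technical. Expression of one part of a scaffold can move as a unit because neighbouring genes share chromatin state and, in cultured cells, can share a gain or loss of a chromosome segment, which cultured pluripotent lines are known to acquire. RNA levels were measured here and DNA was not, so neither was tested. In such bulk samples, fewer cells of a type and less RNA per cell cannot be told apart.

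Total estimated counts ran from 8627969 to 14890256 per library, and 17225 models passed the filter on low counts. Replicates correlated with a Pearson r across models of 0.944 to 0.995 on log2 CPM (counts scaled to library size by TMM). The chi-square per degree of freedom between replicates ran from 1.20 in BACL LB GPiPSC to 112 in XR PF. The BACL pairs thus lay close together, and the PF pairs and the stage I day 24 pair (109) lay far apart. LB GPiPSC replicate 3 stood apart from replicates 1 and 2 in the block, and the results that rest on it are given by library or with and without it. No pluripotency, fibroblast or epithelial marker could be checked, because the files pair no model with a gene name, and the roles of single members are unknown here for the same reason.

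Of the 140 members 91 were tested (65.0%), compared with 925 of the 1325 models below the range (69.8%). The other 49 members did not pass the filter, among them 14 with no count in any library, and 111 members reached 10 counts over all libraries. Members resembled the rest of the scaffold in size and level. Their median coding length was 1020 bases against 981, the median mean TPM (a level per length) of the tested ones was 7.95 against 9.27, and 58.2% against 55.9% of the tested ones reached a mean of 10 CPM. Within the block 29 members shared a coding length with another member. Where models are nearly identical their reads may be split between them, so single members serve as examples.

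The level of the block was taken, in each library, as the median over tested members of the log2 CPM difference from the mean of the 12 groups, minus the same median over the tested models below the range. It was low in XR GPiPSC, at -0.71 and -0.72 in the 2 libraries (mean -0.71 ± 0.0011, SD, n = 2). BACL-CHIR99021 was about as low, with -0.66 and with -0.75, the lowest single library, and BACL control gave -0.58 and -0.63. These 6 libraries lay below all 19 others.

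LB GPiPSC gave 0.56 and 0.46 in replicates 1 and 2 but -0.40 in replicate 3, so that its mean of 0.21 ± 0.53 (SD, n = 3) describes none of them. BACL LB GPiPSC gave 0.36 and 0.29. The established lines thus fell into libraries at 0.29 or more and libraries at -0.40 or less, and the division ran through the LB GPiPSC group. The sample descriptions begin with KL2 in XR GPiPSC and with K2 in BACL control and BACL-CHIR99021, while those of BACL LB GPiPSC begin with KmT; the labels do not explain these codes.

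Outside the established lines the levels lay between -0.46 and 1.10, with no gap like that among the lines. LB PF gave 0.11 and -0.46, XR PF -0.00023 and 0.40, and control day 16 -0.14 and -0.18. A83-01 day 16 gave 0.05 and -0.12, stage I day 8 gave 0.27 and 0.26, and stage I day 24 gave 0.56 and 0.28. Stage II day 8, at 0.97 and 1.10, was the highest group. The SD between replicates pooled over the groups was 0.26, and with the 12 groups ordered by their mean, neighbours differed by less than this at all steps but 2. The exceptions were the step from BACL control, at a mean of -0.61, to LB PF, at -0.18, and the step from stage I day 24, at 0.42, to stage II day 8, at 1.04. The 2 LB PF libraries lay further apart than the first of these steps.

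**Figure D1:**
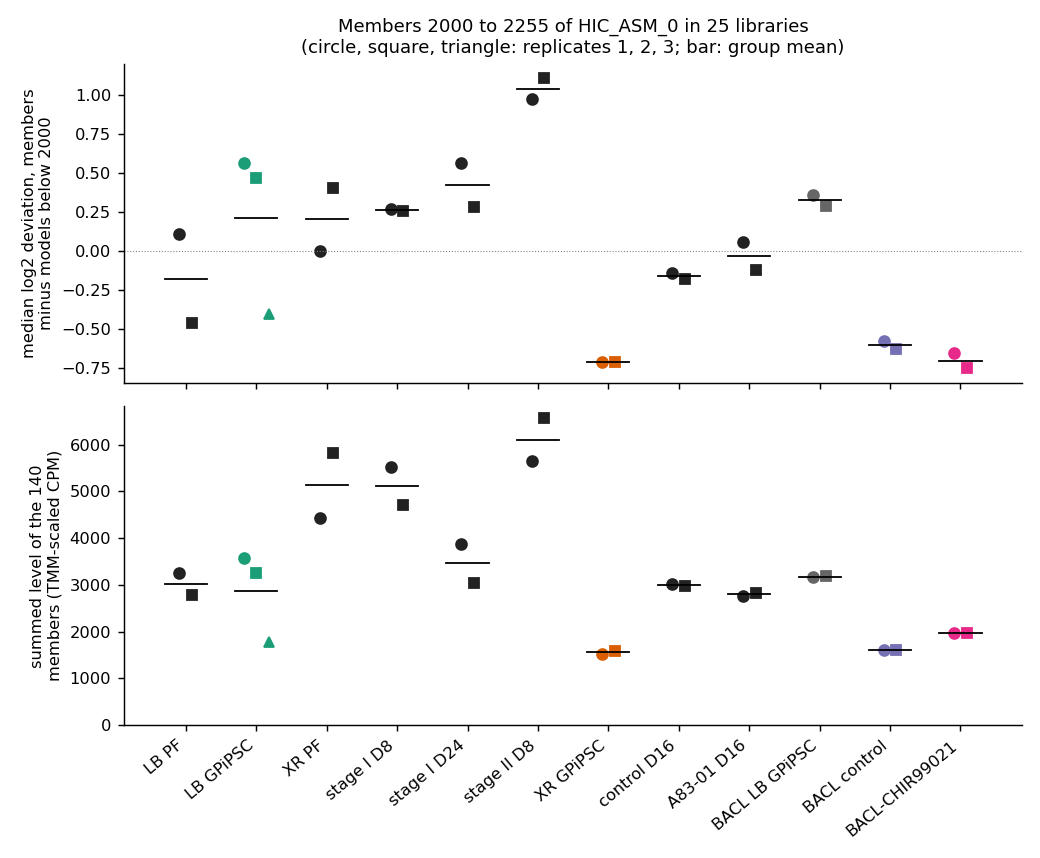
Block level per library in log2 units (upper panel) and summed TMM-scaled CPM of the 140 members (lower panel, from 0) for the 12 groups; symbols are replicates and bars are group means. The XR GPiPSC, BACL control and BACL-CHIR99021 libraries lie lowest in the upper panel, and LB GPiPSC replicate 3 lies apart from replicates 1 and 2 in both.

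The summed level of all 140 members, tested or not, followed a similar order among the established lines. It was 3172 and 3181 CPM in BACL LB GPiPSC, 3574 and 3263 CPM in LB GPiPSC replicates 1 and 2, and 1789 CPM in replicate 3. XR GPiPSC had 1530 and 1594 CPM, BACL control 1598 and 1597 CPM, and BACL-CHIR99021 1966 and 1974 CPM. The block therefore took 0.475% and 0.423% of the counts of LB GPiPSC replicates 1 and 2, against 0.237% in replicate 3 and 0.191% and 0.198% in XR GPiPSC. A few abundant members weigh on such sums. Stage II day 8 reached 5650 and 6565 CPM and XR PF 4441 and 5816 CPM, of which member 2010 alone supplied 1386 and 1952 CPM in stage II day 8 and 791.5 and 1385 CPM in XR PF.

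To set the established lines side by side member by member, the log2 CPM of each library was compared with the mean of the 2 BACL LB GPiPSC libraries and centred on the models below the range; this reference was chosen after the values were seen. The median ratio over the 91 tested members was 0.21 and 0.10 in LB GPiPSC replicates 1 and 2 and -0.84 in replicate 3. It was -1.14 and -1.02 in XR GPiPSC, -1.01 and -1.04 in BACL control and -0.78 and -0.82 in BACL-CHIR99021. On a linear scale the typical member stood at 0.453 and 0.492 of the BACL LB GPiPSC level in XR GPiPSC and at 0.497 and 0.485 in BACL control. LB GPiPSC replicate 3 stood at 0.557 and BACL-CHIR99021 at 0.581 and 0.568.

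As a description of the range as chosen, most members had ratios below 0 in the low libraries. Ratios were below 0 for 75 of 91 members in LB GPiPSC replicate 3, for 73 and 71 in XR GPiPSC, for 84 and 84 in BACL control and for 76 and 80 in BACL-CHIR99021, against 30 and 37 in LB GPiPSC replicates 1 and 2. The members were closest together in BACL control, where the quartiles were -1.29 and -0.65 in replicate 1 and -1.23 and -0.61 in replicate 2. In XR GPiPSC they were wider, from -1.49 to -0.17 and from -1.52 to -0.23. The models below the range were wider there too, from -0.40 to 0.64 in XR GPiPSC replicate 1 and from -0.29 to 0.32 in BACL control replicate 1. For comparison, 15.6% and 15.0% of the models below the range had a ratio under -0.5 in BACL control and 20.9% and 21.4% in XR GPiPSC, where 73 and 72 and then 63 and 60 of the 91 members did.

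Along the block the shift did not begin at number 2000. The first 11 tested members, 2000 to 2036, had median ratios of 0.43 and 0.53 in XR GPiPSC, 0.42 and 0.17 in BACL-CHIR99021, -0.27 and -0.25 in BACL control and 0.20 in LB GPiPSC replicate 3. The 80 tested members from 2038 on had medians of -1.21 and -1.16 in XR GPiPSC, -1.05 and -1.06 in BACL control, -0.91 and -0.90 in BACL-CHIR99021 and -0.91 in LB GPiPSC replicate 3. In LB GPiPSC replicates 1 and 2 the first 11 gave 0.41 and 0.76, and the 80 from 2038 on gave 0.21 and 0.03. Positive medians before 2038 were thus also found in libraries high in the block, and replicate 2 was lower after it too. This bound was read off the values and has no test. Before it, single members went either way. The mean ratio of 2007 was 1.23 in XR GPiPSC and -1.03 in BACL control. That of 2036 was -0.81 in XR GPiPSC, -0.27 in BACL control and -1.66 in BACL-CHIR99021.

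Of the 80 members from 2038 on, 64 were below 0 in all 6 libraries of XR GPiPSC, BACL control and BACL-CHIR99021, and 44 (55.0%) were under -0.5 in all 6. None of the first 11 members and 22 of the 925 models below the range (2.38%) were under -0.5 in all 6. The range, the bound at 2038 and these libraries were picked on such values, so the contrast is a description and nothing is read from it. Taken as group means, 4 of the 80 were above 0 in BACL control, 6 in BACL-CHIR99021 and 10 in XR GPiPSC. A mean ratio between -1.5 and -0.5 was found for 60 of the 80 in BACL control, 47 in BACL-CHIR99021 and 39 in XR GPiPSC. The models below the range were also closer together in BACL control, with quartiles of -0.29 and 0.32 in replicate 1. In replicate 1 of BACL-CHIR99021 their quartiles were -0.40 and 0.75, and in that of XR GPiPSC -0.40 and 0.64. The narrower spread in BACL control was thus not particular to the block.

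**Figure D2:**
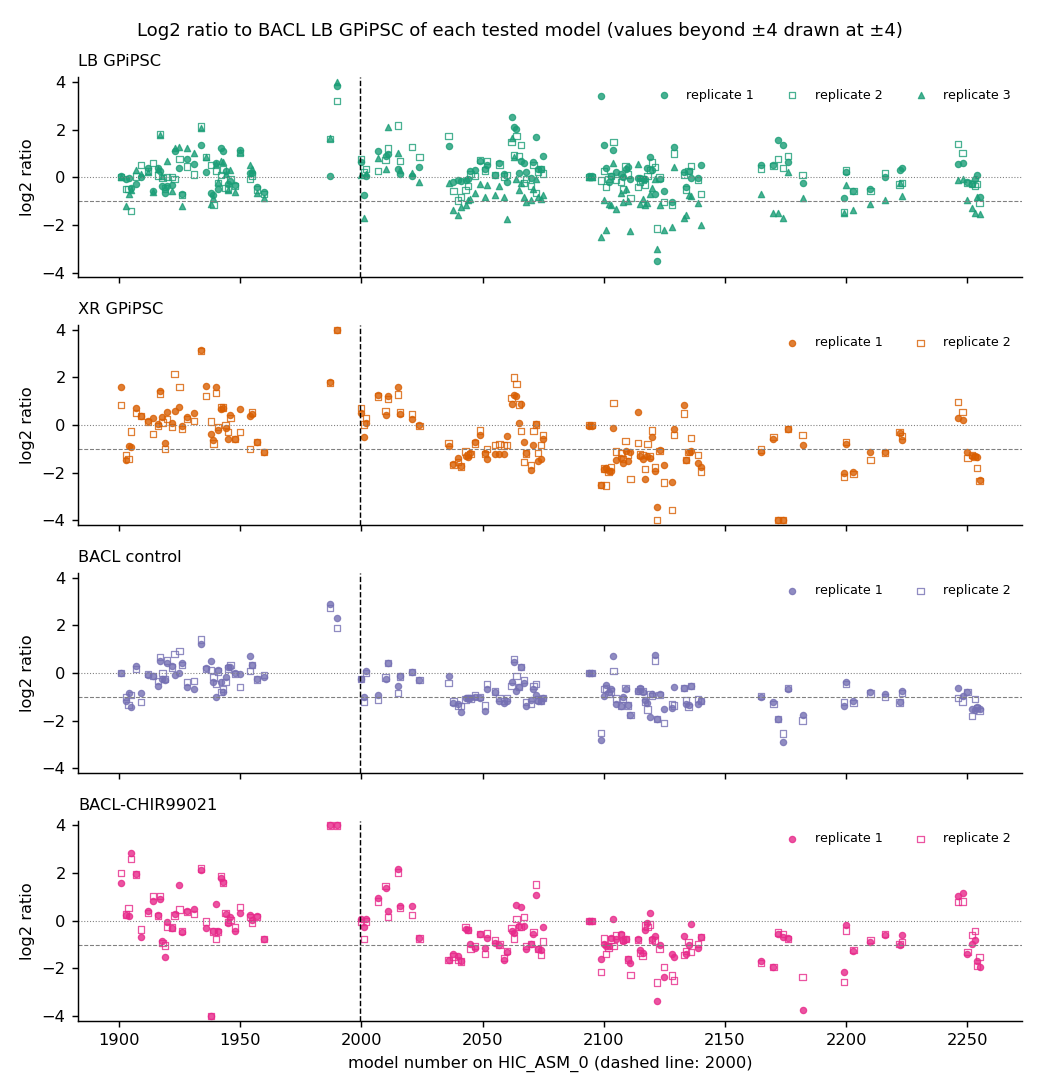
Log2 ratio to BACL LB GPiPSC of each tested model against its number on the scaffold, from 1900 on, in 4 groups; symbols are replicates, the vertical line marks 2000 and the dashed horizontal line a ratio of -1. Members from 2038 on are centred near -1 in XR GPiPSC, BACL control, BACL-CHIR99021 and LB GPiPSC replicate 3, with single members far from it. In LB GPiPSC replicates 1 and 2 they are centred near 0.

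In bins of 50 model numbers the shift reached the end of the scaffold. In BACL control replicate 1 the bin medians were -0.95 for 2000 to 2049 (19 tested members), -0.85 for 2050 to 2099 (22), -0.998 for 2100 to 2140 (30) and -0.97 for 2200 to 2261 (13). In XR GPiPSC replicate 1 the same bins gave -0.41, -0.78, -1.43 and -1.14, and in LB GPiPSC replicate 3 they gave -0.26, -0.65, -1.09 and -0.95. The 2150 to 2199 bin held only 7 tested members and is not plotted. The last tested member, 2255, had 8.30 and 7.86 CPM in XR GPiPSC and 14.4 and 13.5 CPM in BACL control, against 40.5 and 41.4 CPM in BACL LB GPiPSC and 21.9, 19.2 and 13.7 CPM in LB GPiPSC. LB GPiPSC replicates 1 and 2 were thus themselves well below BACL LB GPiPSC in this member, at ratios of -0.85 and -1.09, beside -2.31 and -2.36 in XR GPiPSC.

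Of the 39 bins below 2000 with at least 10 tested models, none had a median ratio under -0.5 in LB GPiPSC replicates 1 and 3, XR GPiPSC, BACL control or BACL-CHIR99021. The exception among the established lines was LB GPiPSC replicate 2, in which 6 such bins were under -0.5, the lowest at -1.09 from number 1200 on. In the PF, stage and day 16 libraries 3 to 15 of the 39 bins were under -0.5. LB PF replicate 2, whose block level of -0.46 was below that of LB GPiPSC replicate 3, had 7 of them, the lowest at -2.95. On the other HIC_ASM scaffolds, 314 bins of 100 numbers held at least 20 tested models. One of them was at or under -0.7 in LB GPiPSC replicate 3 and in each XR GPiPSC library, the bin from 1200 on HIC_ASM_11, and 3 were in each BACL control and BACL-CHIR99021 library, the lowest from 100 on HIC_ASM_15. In the PF, stage and day 16 libraries, whose profiles differ from BACL LB GPiPSC in many models, 1 to 30 of the 314 bins were that low.

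**Figure D3:**
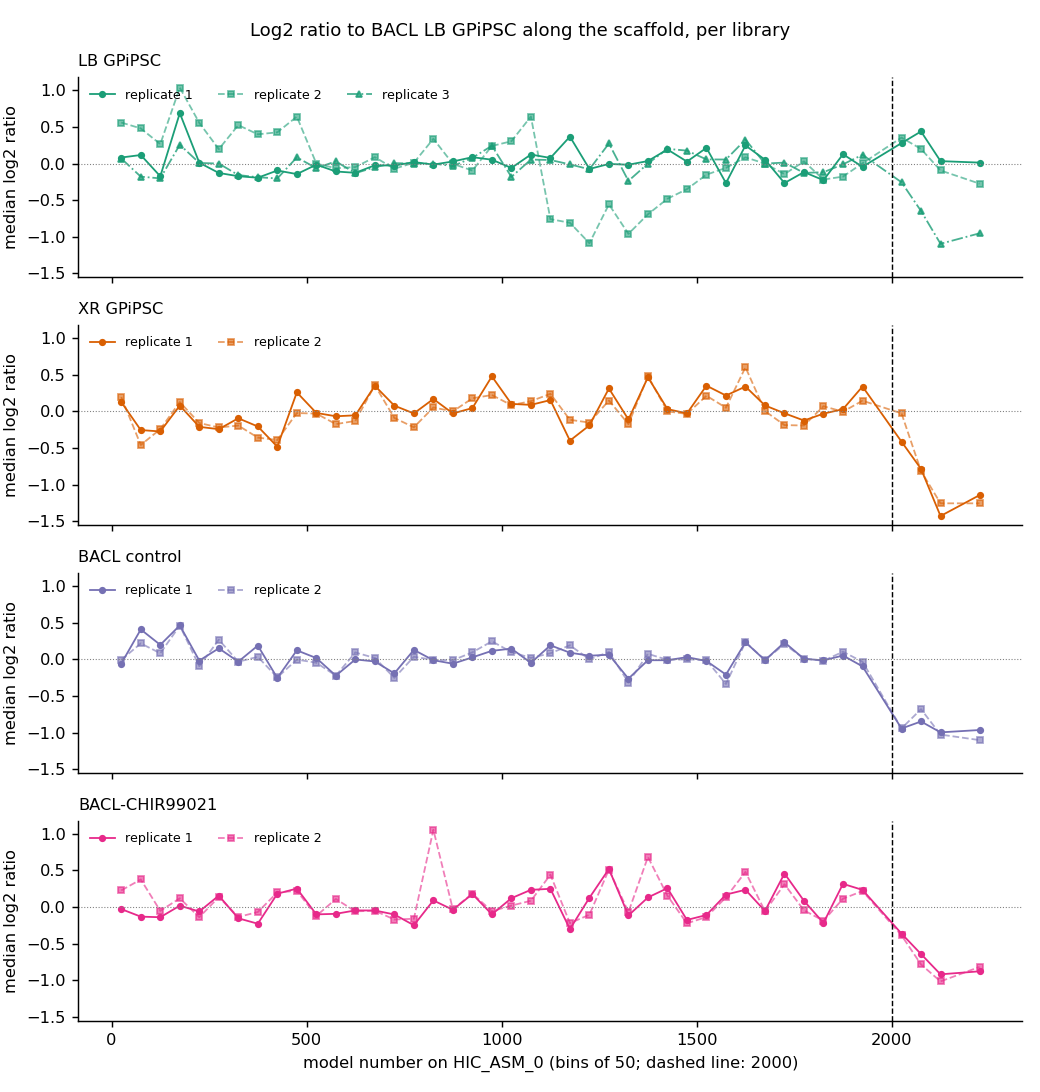
Median log2 ratio to BACL LB GPiPSC in bins of 50 model numbers along the scaffold (bins with at least 10 tested models), 1 panel per group and 1 line per replicate, with 2000 marked. The lines fall below -0.5 beyond 2000 in XR GPiPSC, BACL control, BACL-CHIR99021 and LB GPiPSC replicate 3, and LB GPiPSC replicate 2 dips from about number 1100 to 1450.

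At the lower bound of the range, the 3 tested models just outside were 1960, 1987 and 1990. Model 1960 had 50.2 and 49.0 CPM in XR GPiPSC, 96.3 and 100.1 CPM in BACL control and 109 and 104 CPM in BACL LB GPiPSC. Model 1990 had 0.31 and 0.40 CPM in BACL LB GPiPSC and 2.36 and 1.74 CPM in BACL control, and model 1987 had no count in BACL LB GPiPSC. The 3 tested models just inside were 2000, 2001 and 2002. Model 2000 had 16.6 and 18.7 CPM in XR GPiPSC, 9.45 and 9.56 CPM in BACL control and 10.8 and 11.9 CPM in BACL LB GPiPSC, and model 2002 had 37.9 and 43.0, 36.8 and 35.2, and 33.8 and 35.9 CPM. Model 2001 stayed between 0.094 and 1.23 CPM in all libraries. Model 1960 was thus lower in XR GPiPSC but close to its BACL LB GPiPSC level in BACL control, 2000 was higher in XR GPiPSC, and 2002 was level in all 3 groups. Neither change was particular to XR GPiPSC. Model 1960 also had ratios of -0.61, -0.72 and -0.87 in LB GPiPSC replicates 1, 2 and 3 and -0.76 and -0.77 in BACL-CHIR99021. The mean ratio of 2000 was 0.49 in LB GPiPSC, beside 0.61 in XR GPiPSC.

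Individual members serve as examples of the shift, which was not even across the block. Of the 80 tested members after the first 11, 11 had a mean ratio under -2 in XR GPiPSC and 10 had one above 0. In BACL control these counts were 2 and 4. Member evm.model.HIC_ASM_0.2123, 1 of the 3 with the highest mean TPM (176), had 106.9 and 115.5 CPM in LB GPiPSC replicates 1 and 2, 51.3 CPM in replicate 3, and 115.9 and 117.6 CPM in BACL LB GPiPSC. It had 57.6 and 55.0 CPM in XR GPiPSC, 64.3 and 61.6 CPM in BACL control and 58.1 and 51.8 CPM in BACL-CHIR99021. The 4 libraries high in the block and the 7 low in it did not overlap, which describes the range as chosen. In the other groups it ran from 61.7 CPM in A83-01 day 16 to 174.6 CPM in LB PF.

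Member evm.model.HIC_ASM_0.2038, the first tested one from the bound read off the values, had 249.5 and 257.5 CPM in BACL LB GPiPSC. In LB GPiPSC it had 213.5, 169.2 and 98.1 CPM. It had 82.5 and 79.1 CPM in XR GPiPSC, 107.0 and 110.6 CPM in BACL control and 97.5 and 90.9 CPM in BACL-CHIR99021. Here too the 4 high libraries lay above the 7 low ones, and nothing is read from it. Member evm.model.HIC_ASM_0.2041 gave the same picture, with 117.5 and 115.9 CPM in BACL LB GPiPSC, 100.9, 65.0 and 48.9 CPM in LB GPiPSC, 36.0 and 34.7 CPM in XR GPiPSC, 37.8 and 44.3 CPM in BACL control and 37.0 and 36.1 CPM in BACL-CHIR99021. Unlike 2123, it was low in PF, at 10.8 and 4.97 CPM in LB PF. Members 2038 and 2255 were picked here for their place and 2038 after its values were seen.

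Member evm.model.HIC_ASM_0.2115, the one with the highest mean TPM (228), has a coding length of only 264 bases. It had 24.4 and 24.8 CPM in BACL LB GPiPSC, 22.9, 21.4 and 11.3 CPM in LB GPiPSC, 10.2 and 10.4 CPM in XR GPiPSC, 15.7 and 15.5 CPM in BACL control and 10.5 and 9.78 CPM in BACL-CHIR99021. It was highest in stage II day 8, at 78.5 and 97.1 CPM.

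**Figure D4:**
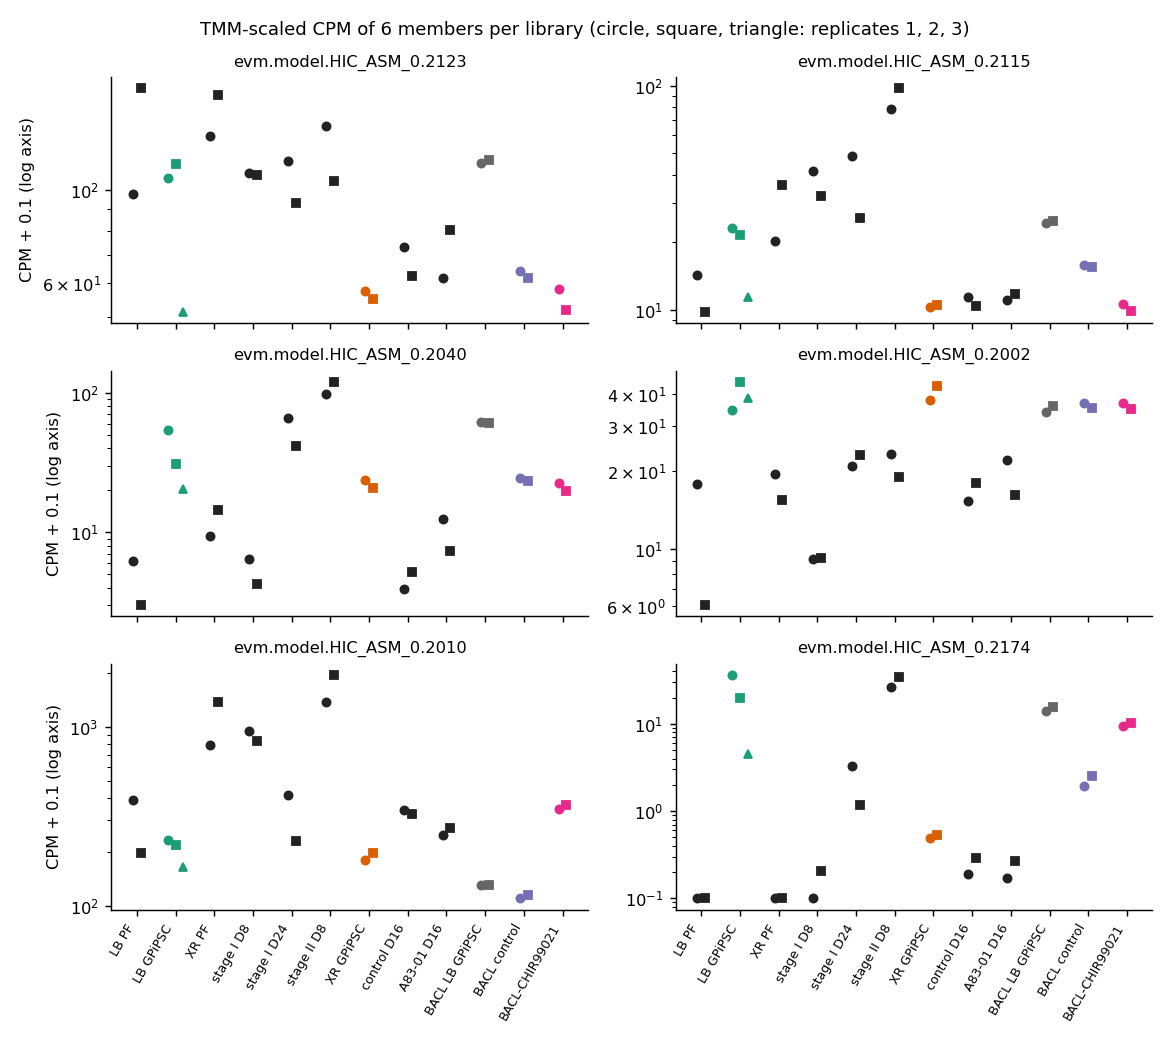
TMM-scaled CPM plus 0.1 on a log axis for 6 members in the 25 libraries; symbols are replicates and colours mark the established-line groups. Members 2123, 2115 and 2040 are lower in the low lines than in BACL LB GPiPSC, 2002 is level among the established lines, 2010 is highest in stage II day 8 and XR PF, and 2174 is near 0 in XR GPiPSC and in PF.

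Several members departed from the common shift. Member evm.model.HIC_ASM_0.2172 had 102.6 and 97.9 CPM in BACL LB GPiPSC, 283.3, 168.7 and 35.3 CPM in LB GPiPSC, 26.1 and 26.1 CPM in BACL control and 69.0 and 72.6 CPM in BACL-CHIR99021, but only 0.064 and 0.18 CPM in XR GPiPSC, which was also its level in PF. Its mean ratio of -8.55 was the lowest of the 80 members from 2038 on in XR GPiPSC; both XR GPiPSC libraries lay at or under the worth of 3 counts, so this ratio depends on the prior count. Its neighbour evm.model.HIC_ASM_0.2174 had 14.0 and 15.5 CPM in BACL LB GPiPSC, 36.1, 19.4 and 4.37 CPM in LB GPiPSC, 1.87 and 2.42 CPM in BACL control, and 0.39 and 0.43 CPM in XR GPiPSC. In XR GPiPSC both were thus far below the level of the block, and both were on in stage II day 8, at 154.7 and 125.0 CPM for 2172 and 26.5 and 34.0 CPM for 2174.

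Member evm.model.HIC_ASM_0.2010 lies before 2038 and stood out by its height. It had 109.8 and 115.1 CPM in BACL control, 130.4 and 131.3 CPM in BACL LB GPiPSC, 179.2 and 198.1 CPM in XR GPiPSC and 348.1 and 366.5 CPM in BACL-CHIR99021. Member evm.model.HIC_ASM_0.2072 was nearly off in all established lines, between 0.19 and 1.81 CPM, and reached 647.7 and 479.2 CPM in stage I day 8. For such a member the established lines carry too few counts to show a shift of the block.

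Among the established lines, edgeR's quasi-likelihood test called 17 of 91 members lower and none higher in XR GPiPSC than in LB GPiPSC, where 1.20% of all tested models were called lower and 1.10% higher; no member was higher at an unadjusted p under 0.05 (0), nor by DESeq2 (0) or limma-trend (0). The choice of the range used this difference, so nothing is read from the count. The median log2 fold change was -0.85 over members and 0.03 over models below the range (-1.12 over members without LB GPiPSC replicate 3). All 17 called members were numbered 2038 or higher, as are 80 of the 91 tested members. The count rests on single libraries. It was 42 without LB GPiPSC replicate 3, 2 and 4 without replicates 1 and 2, and 1 without either XR GPiPSC library, and with only the compared libraries in the fit it was 0. Among members with at least 10 counts in the XR GPiPSC libraries together, evm.model.HIC_ASM_0.2174 stood at -5.58 (SE 0.79) on the log2 scale, and evm.model.HIC_ASM_0.2117 had -1.59 (SE 0.33), from 17.4, 15.1 and 8.22 CPM in LB GPiPSC to 3.86 and 5.16 CPM in XR GPiPSC. Member 2172, under that count in XR GPiPSC, was lower still. Without either XR GPiPSC library 2174 was no longer called, and 2117 was not called without either of these or without LB GPiPSC replicate 1 or 2.

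In BACL control 20 members were called lower than in BACL LB GPiPSC and none higher, where 1.55% of all models were called lower and 2.90% higher; again no member was higher at an unadjusted p under 0.05 (0), by DESeq2 (0) or by limma-trend (0). The medians were -1.07 over members and 0.00 over models below the range. The 20 called members lay from 2038 on, as do 80 of the 91 tested members. The count was 1 or 2 with any 1 of the 4 libraries left out and 70 (69 lower, 1 higher) with only the compared libraries in the fit, which estimates the spread from these close replicates alone. With only the compared libraries in the fit, 24.9% of all tested models were called lower and 25.4% higher. Of the models below the range 25.5% were called lower there. The named members were evm.model.HIC_ASM_0.2174, at -2.78 (SE 0.67), and evm.model.HIC_ASM_0.2125, at -1.81 (SE 0.43), from 10.2 and 11.5 CPM in BACL LB GPiPSC to 3.73 and 2.42 CPM in BACL control. Neither was called with any 1 of the 4 libraries left out. As above, the choice of the range used differences of this kind.

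In the other established-line comparisons the median of the members moved little. BACL LB GPiPSC against LB GPiPSC called 4 members higher and 1 lower, with 1.79% and 7.70% of all models, and medians of 0.07 over members (-0.13 without LB GPiPSC replicate 3) and 0.00 below the range; the highest was evm.model.HIC_ASM_0.2255, at 1.16 (SE 0.23), from 21.9, 19.2 and 13.7 CPM in LB GPiPSC to 40.5 and 41.4 CPM. Without LB GPiPSC replicate 1 the count was 11, without BACL LB GPiPSC replicate 1 or 2 it was 2, and without LB GPiPSC replicate 2 or 3 it was 3 and 6. BACL-CHIR99021 against BACL control called 8 members higher and none lower, with 11.7% and 4.43% of all models; at an unadjusted p under 0.05, 6 members were lower, and DESeq2 called 1 lower and limma-trend 0. Both groups were low in the block, and the median difference between them was -0.01 over members and 0.03 below the range. Member evm.model.HIC_ASM_0.2010 had a log2 fold change of 1.67 (SE 0.33). Member evm.model.HIC_ASM_0.2107 had one of 0.83 (SE 0.25), from 42.4 and 43.4 to 77.6 and 75.02 CPM, and was not called with any 1 of the 4 libraries left out. With a library left out the count of called members fell to between 1 and 4.

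The fibroblast to GPiPSC change was then taken in LB and in XR. In LB GPiPSC against LB PF 33 members were called higher and 21 lower, where 28.5% of all models were higher and 28.9% lower, with medians of 0.15 over members and -0.0020 below the range. Without LB GPiPSC replicate 3 the counts were 39 and 20 and the member median 0.45. Member evm.model.HIC_ASM_0.2059 rose from 1.48 and 0.61 CPM to 36.4, 35.0 and 19.3 CPM (log2 fold change 4.78, SE 0.50; edgeR adjusted p = 1.52e-07), and 2041 rose by 3.16 (SE 0.36; edgeR adjusted p = 5.3e-07). Member 2072 fell from 72.4 and 101.7 CPM to 1.81, 0.25 and 0.45 CPM, and evm.model.HIC_ASM_0.2252 from 59.2 and 58.9 CPM to 5.19, 5.48 and 2.63 CPM (log2 fold change -3.73, SE 0.46; edgeR adjusted p = 1.42e-06). The PF and GPiPSC libraries did not overlap in any of these.

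In XR GPiPSC against XR PF 19 members were called higher and 42 lower, where 27.0% of all models were higher and 28.9% lower (21 and 30 by limma-trend on log2(TPM + 0.1)). The medians were -0.99 over members and 0.20 below the range. The low XR GPiPSC libraries also bear on the choice of the range, so the count of lower members is a description. Member evm.model.HIC_ASM_0.2170 rose from 7.27 and 6.96 CPM to 42.7 and 44.5 CPM (log2 fold change 2.61, SE 0.43; edgeR adjusted p = 4.25e-05), and evm.model.HIC_ASM_0.2024, before 2038, from 9.94 and 8.17 CPM to 43.5 and 42.3 CPM (2.24, SE 0.31; edgeR adjusted p = 5.26e-06). Member evm.model.HIC_ASM_0.2121 fell from 100.5 and 213.4 CPM to 0.39 and 0.43 CPM.

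The difference of the XR and LB changes was called lower for 27 members and higher for none, where 5.56% of all models were lower and 3.09% higher; at an unadjusted p under 0.05, 3 members were higher, and DESeq2 called 0 higher and limma-trend 1 and 0 on the 2 scales. The median difference was -1.42 over members and 0.24 below the range. It contains the contrast between the GPiPSC lines on which the range was chosen, so the count is a description. Without LB GPiPSC replicate 3 it was called for 41 members, with a member median of -1.69. It was called for 17 without LB PF replicate 2, 13 without XR PF replicate 2, 11 without XR GPiPSC replicate 1 and 14 without replicate 2, and for 1 with only the compared libraries. The fibroblasts themselves went the other way: XR PF against LB PF called 14 members higher and 2 lower, where 9.47% and 5.04% of all models were, with medians of 0.30 over members and -0.16 below the range. These counts rest on single libraries, since without LB PF replicate 2 only 4 members were called and without XR PF replicate 2 only 6. Member 2121 rose from 10.8 and 1.70 CPM in LB PF to 100.5 and 213.4 CPM in XR PF (log2 fold change 4.60, SE 0.62; edgeR adjusted p = 7.51e-05), and 2010 from 392.9 and 196.3 to 791.5 and 1385 CPM (1.88, SE 0.33; edgeR adjusted p = 0.000898, up to 0.0677 over 12 alternatives).

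**Figure D5:**
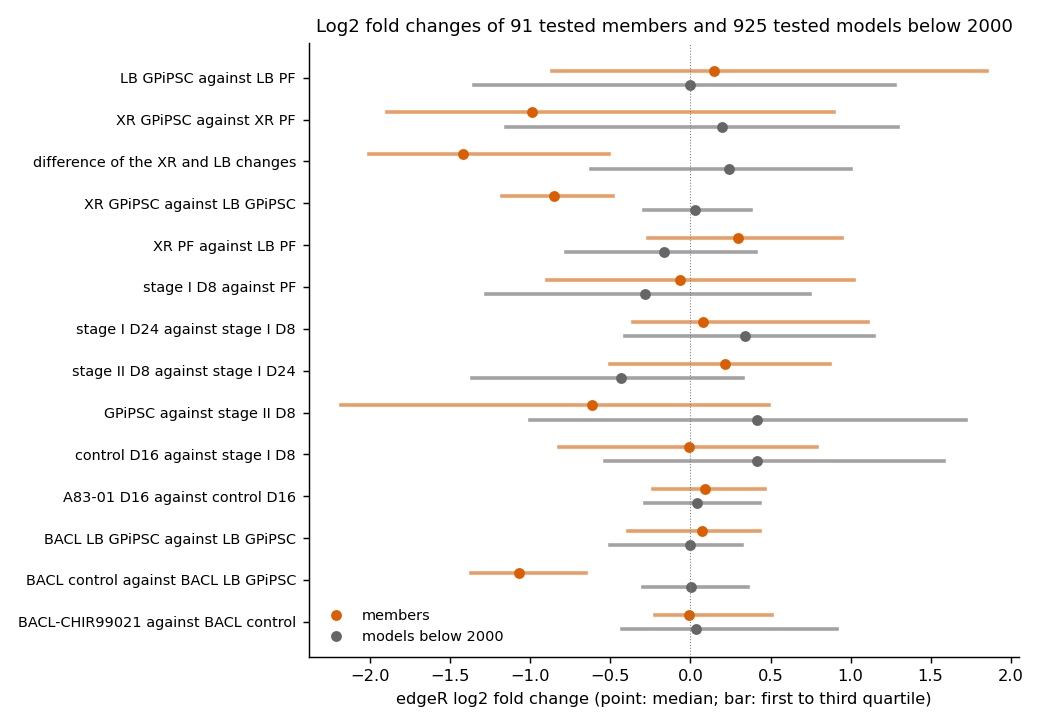
Median (point) and quartiles (bar) of the edgeR log2 fold changes over 91 tested members and 925 tested models below 2000 in 14 comparisons. Members lie below the rest of the scaffold in the comparisons that set XR GPiPSC or BACL control against a higher group, and above it for XR PF against LB PF and for stage II day 8 against stage I day 24.

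In the reprogramming course the members moved in both directions at each step. From PF (the mean of LB and XR) to stage I day 8, 24 members were called higher and 20 lower, where 26.0% and 25.6% of all models were, with medians of -0.07 over members and -0.28 below the range; without stage I day 8 replicate 1, 19 members were called in all. The balance turned on the TPM scale, where limma-trend called 12 higher and 31 lower on log2(TPM + 1) and 14 and 29 on log2(TPM + 0.1). Among all models 14.5% were higher and 35.9% lower on log2(TPM + 1), and 15.3% and 35.4% on log2(TPM + 0.1). There the median over all tested models was -0.29 and -0.41, against 0.00 in edgeR, and that over members -0.25 and -0.47. Member evm.model.HIC_ASM_0.2122 rose from 0.98 and 0.24 CPM in LB PF and 4.12 and 11.2 CPM in XR PF to 29.4 and 21.8 CPM (log2 fold change 3.50, SE 0.46; edgeR adjusted p = 7.88e-06), and 2121 rose to 365.5 and 259.3 CPM (3.29, SE 0.44; edgeR adjusted p = 1.08e-05). Members evm.model.HIC_ASM_0.2253 and evm.model.HIC_ASM_0.2252, next to each other at the end of the block, fell together. Member 2253 went from 160.1 and 158.3 CPM in LB PF and 245.4 and 67.9 CPM in XR PF to 13.8 and 32.2 CPM (log2 fold change -2.78, SE 0.59; edgeR adjusted p = 0.000847), and 2252 changed by -2.25 (SE 0.47; edgeR adjusted p = 0.000824).

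From stage I day 8 to day 24, 19 members were called higher and 8 lower, where 18.6% and 13.9% of all models were, with medians of 0.08 over members and 0.34 below the range. Members 2040 and 2041, adjacent in number, rose together: evm.model.HIC_ASM_0.2040 from 6.38 and 4.15 CPM to 66.4 and 41.6 CPM (log2 fold change 3.36, SE 0.45; edgeR adjusted p = 1.38e-05) and 2041 from 5.63 and 6.74 CPM to 37.6 and 64.8 CPM (3.05, SE 0.38; edgeR adjusted p = 6.33e-06). Members 2121 and 2072 fell, by 3.69 (SE 0.58; edgeR adjusted p = 7.46e-05) and 2.52 (SE 0.52; edgeR adjusted p = 0.00106) on the log2 scale. The block as a whole changed little here, and each direction was near its share among all models or below it.

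Stage II day 8 set against stage I day 24 had 18 members called higher and 10 lower, where 12.7% and 19.0% of all models were, with medians of 0.21 over members and -0.43 below the range. By limma-trend 9 were higher and 8 lower on log2(TPM + 1), and 9 and 10 on log2(TPM + 0.1), with member medians of -0.03 and -0.11. Members 2172 and 2174 came on in this step, from 7.17 and 9.18 to 154.7 and 125.0 CPM (log2 fold change 4.09, SE 0.63; edgeR adjusted p = 0.000132) and from 3.16 and 1.08 to 26.5 and 34.0 CPM (3.87, SE 0.70; edgeR adjusted p = 0.000788). Members 2253 and 2122 had log2 fold changes of -2.12 (SE 0.66; edgeR adjusted p = 0.0208) and -2.02 (SE 0.53; edgeR adjusted p = 0.00776), which did not hold when single libraries were left out (adjusted p = 0.577 for 2253 without stage I day 24 replicate 2 and 0.195 without stage II day 8 replicate 2; 0.0885 for 2122 without stage I day 24 replicate 1, and 0.0591 and 0.058 without stage II day 8 replicates 1 and 2). The number of called members was 16 without stage I day 24 replicate 2, 16 without stage II day 8 replicate 1 and 9 without stage II day 8 replicate 2.

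From stage II day 8 to GPiPSC (the mean of LB and XR) 12 members were called higher and 42 lower, where 31.0% and 36.3% of all models were, with medians of -0.61 over members and 0.42 below the range. Without LB GPiPSC replicate 3 the counts were 18 and 39 and the member median -0.48. The balance turned here too on the TPM scale, with 30 members higher and 25 lower on log2(TPM + 1) and 30 and 22 on log2(TPM + 0.1). Among all models 49.9% were higher and 15.3% lower on log2(TPM + 1), and 50.2% and 16.3% on log2(TPM + 0.1). The member median was then 0.18 and 0.33, beside 0.55 and 0.82 over all tested models (-0.08 in edgeR), so that members stayed below the median of all models on each scale. Members evm.model.HIC_ASM_0.2016 and evm.model.HIC_ASM_0.2135 rose, 2016 from 10.7 and 9.21 CPM to 43.4, 65.8 and 49.8 CPM in LB and 56.8 and 59.1 CPM in XR GPiPSC (log2 fold change 2.47, SE 0.39; edgeR adjusted p = 2.34e-05) and 2135 from 8.72 and 4.44 CPM to 52.6, 54.4 and 27.03 CPM in LB and 21.2 and 20.8 CPM in XR GPiPSC (2.21, SE 0.54; edgeR adjusted p = 0.00141; 2.38 without LB GPiPSC replicate 3). Member 2117 fell from 139.6 and 177.1 CPM to 17.4, 15.1 and 8.22 CPM in LB and 3.86 and 5.16 CPM in XR GPiPSC (log2 fold change -4.34, SE 0.27; edgeR adjusted p = 3.15e-10), and 2072 by 6.28 (SE 0.49; edgeR adjusted p = 6.6e-09) on the log2 scale. The XR GPiPSC libraries, which bear on the choice of the range, make up part of this mean.

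In the day 16 cultures the block level of control and A83-01 differed by less than the pooled SD between replicates. Control day 16 against stage I day 8 called 14 members higher and 16 lower, where 23.0% and 20.2% of all models were, with medians of -0.01 over members and 0.42 below the range; 7 members were called without stage I day 8 replicate 1, and 18 and 12 without control replicates 1 and 2. By limma-trend 23 were higher and 7 lower on log2(TPM + 1), and 23 and 6 on log2(TPM + 0.1). Among all models 36.5% were higher and 7.88% lower on the first scale, and 36.6% and 7.13% on the second. The member median was then 0.23 and 0.48, beside 0.45 and 0.68 over all tested models (0.05 in edgeR). Member 2121 fell to 12.5 and 9.92 CPM (log2 fold change -4.80, SE 0.62; edgeR adjusted p = 3.25e-05) and 2072 to 90.5 and 81.6 CPM (-2.71, SE 0.53; edgeR adjusted p = 0.00111). Members 2135 and evm.model.HIC_ASM_0.2200 rose by 2.37 (SE 0.58; edgeR adjusted p = 0.00434) and 1.77 (SE 0.44; edgeR adjusted p = 0.00489), but not without stage I day 8 replicate 1 (adjusted p = 0.0711 and 0.0877).

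A83-01 against control at day 16 called 5 members higher and none lower, where 4.19% and 2.04% of all models were. At an unadjusted p under 0.05, 2 members were lower, and DESeq2 and limma-trend called 0 lower. The medians were 0.09 over members and 0.04 below the range, and without control replicate 1 or 2 or A83-01 replicate 1 the count was 2. Member 2041 had 8.80 and 6.61 CPM in control and 21.6 and 15.3 CPM with A83-01 (log2 fold change 1.26, SE 0.36; edgeR adjusted p = 0.0444), and lost the call with any 1 library left out (adjusted p up to 0.398).

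The shift among the established lines was present across coding lengths and, less clearly, across levels. With the tested members split into 3 by coding length, from 264 to 858, 867 to 1743 and 1770 to 10713 bases, the median ratio in BACL control replicate 1 was -1.01, -0.93 and -1.02, and in XR GPiPSC replicate 1 it was -0.94, -1.13 and -1.20. Split into 3 by mean log2 CPM, the medians in BACL control replicate 1 were -0.65, -1.21 and -1.05 from the lowest to the highest level, and in XR GPiPSC replicate 1 they were -0.14, -1.30 and -1.28. The prior count of 2 draws the ratios of low models towards 0. Split by level in the same way, the models below the range had medians of -0.01, 0.01 and 0.00 in BACL control replicate 1 and of 0.23, 0.09 and -0.14 in XR GPiPSC replicate 1.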

How the data were processed

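RNA from a column kit (2 μg per sample) was made into NEBNext Ultra libraries, per the labels' protocols. Kallisto, which assigns reads to transcripts without full alignment, is named in the submitters' processing notes. Its version, index and build were not given in the sources used here. The deposited tables list estimated counts and TPM values per gene model, per the file headers. The authors' estimated counts were rounded to whole numbers before testing, and the authors' TPM values, which are scaled to effective length and library total, gave levels per length and 2 alternatives. Model numbers give an order along the scaffold and no coordinates. No identifier matched the RefSeq table at hand, so neither gene names nor sequences are shown.

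One edgeR fit (4.0.16, in R 4.3.3) took in the 25 libraries as 12 groups, leaving 13 residual degrees of freedom. It covered the 17225 models that filterByExpr kept, with TMM scaling, robust dispersion and quasi-likelihood F tests. Benjamini-Hochberg adjustment ran over all of these models, with calls at an adjusted p under 0.05 and the SE derived from F. The step was tested on simulated data.

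The members and lists were chosen with earlier results of these data known. Named members are, for each comparison, the 2 called members per direction that changed most, provided the higher side averaged 10 CPM or more, the lower side held 10 counts or more and their libraries did not overlap. For the difference of changes, 10 CPM in 1 group sufficed and each group needed 10 counts. The 3 members with the highest mean TPM and the 3 tested models at each bound were added, and 2038 and 2172 were picked after their values were seen. Alternatives were RLE scaling, DESeq2 1.42.0, no low-count filter, a filter at a mean of 10 CPM, a fit of the compared libraries alone, a replicate block, limma-trend (limma 3.58.1) on log2(TPM + 1) and on log2(TPM + 0.1), and leaving out single libraries, which assumes that a lone remaining library varies like the other groups. The ratio to BACL LB GPiPSC, the split at 2038 and the bins on other scaffolds were added after the data were seen. Log2 CPM carries a prior count of 2. A floor of 3 counts is worth 0.176 to 0.376 CPM, for counting error only.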

Additional observations from a re-analysis of the deposited data

Results flagged for a closer look

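The test of the difference between the XR and LB changes from PF to GPiPSC called 27 of the 91 tested members, all lower in XR. Among them, evm.model.HIC_ASM_0.2121 had a difference of -6.70 (SE 0.93), with 10.8 and 1.70 CPM in LB PF, 1.04, 2.55 and 1.73 CPM in LB GPiPSC, 100.5 and 213.4 CPM in XR PF and 0.39 and 0.43 CPM in XR GPiPSC, and it stayed called in all 17 alternatives. In this member XR and LB lay further apart in PF than in GPiPSC. Member evm.model.HIC_ASM_0.2059 had a difference of -2.70 (SE 0.64), with 36.4, 35.0 and 19.3 CPM in LB GPiPSC and 14.9 and 18.9 CPM in XR GPiPSC, and was called in 12 of 17 alternatives. The range was chosen on levels in these lines, so the 27 are a description.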

How the results depend on the processing

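The count of called members depended on how the spread was estimated. Percentages in brackets give the share of all tested models called in the same fit. With only the compared libraries the count was 70 for BACL control against BACL LB GPiPSC (50.2%), 43 for BACL-CHIR99021 against BACL control (63.5%) and 11 for A83-01 (12.6%). It was 0 for XR GPiPSC against LB GPiPSC (0.02%) and 1 for the difference of the XR and LB changes (0.55%). For XR PF against LB PF it was 2 (2.63%), and for BACL LB GPiPSC against LB GPiPSC 3 (9.06%). The steps to stage I day 8, day 24 and stage II day 8 had 21 (27.8%), 16 (14.4%) and 13 (10.9%). DESeq2 called 31 in XR GPiPSC against LB GPiPSC (5.16%), 37 in BACL control (6.32%) and 14 in BACL-CHIR99021 (19.1%). Limma-trend on log2(TPM + 1) called 5 in XR GPiPSC against LB GPiPSC, 9 in XR PF, 17 in stage II and 2 with A83-01, and on log2(TPM + 0.1) it called 16 in the difference of changes, 4 in XR GPiPSC against LB GPiPSC, 8 in XR PF, 3 with A83-01, 3 in BACL LB GPiPSC and 13 in BACL control. With a mean of at least 10 CPM, which tests 53 members, the counts were 32 (60.8%) and 40 (58.2%) for the LB and XR changes. They were 9 for XR PF (17.4%), 14 for stage I day 24 (36.5%) and 17 for stage II (36.9%). A83-01 had 1 (6.72%), BACL LB GPiPSC 1 (8.36%) and BACL control 11 (3.50%).

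The median of members minus that of models below the range kept its sign except where it was near 0 and for LB GPiPSC against LB PF without LB PF replicate 2: it was 0.06 for BACL-CHIR99021 with a mean of at least 10 CPM, -0.16 with a replicate block and -0.15 without LB GPiPSC replicate 3 for BACL LB GPiPSC, and 0 in 1 alternative for stage I day 8 and 4 for BACL-CHIR99021. On log2(TPM + 1) it was -0.73 for the XR change, -1.02 for the difference of changes, 0.20 for XR PF, 0.34 for stage II and -0.70 for GPiPSC against stage II, and without a filter on low counts -0.56, -1.36, 0.038, 0.34 and -0.65.

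Nothing in the labels says that replicate numbers pair libraries across groups. Over 66 pairs of groups the deviations of same-numbered libraries correlated at -0.71 to 0.56 (median -0.0049), and 9 exceeded 0.1. The correlation was 0.56 for stage I day 24 against day 8 and 0.26 for XR GPiPSC against XR PF. It was -0.42 for stage II day 8 against stage I day 24. In the other comparisons of single groups it lay between -0.089 and 0.094. Whether replicates pair within single steps was not tested. With a replicate block 39 members were called in XR GPiPSC against LB GPiPSC, 32 in BACL control and 15 in BACL-CHIR99021. Of all tested models 6.57%, 5.29% and 15.9% were called in these fits. The median difference was 0.49 for the LB change, -2.01 for the difference of changes and -1.17 for XR GPiPSC against LB GPiPSC.

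With 1 library left out, called members ranged from 1 to 42 for XR GPiPSC against LB GPiPSC (median difference -1.16 to -0.69), from 11 to 41 for the difference of changes (-2.01 to -1.25), from 4 to 24 for XR PF (0.088 to 0.76), from 19 to 46 for stage I day 8 against PF (0.014 to 0.48), from 9 to 30 for stage II, from 7 to 28 for control day 16, from 2 to 5 for A83-01, from 2 to 11 for BACL LB GPiPSC, from 1 to 2 for BACL control and from 1 to 4 for BACL-CHIR99021. The median difference for LB GPiPSC against LB PF ranged from -0.070 to 0.52. RLE size factors moved none of the 25 library levels by more than the SD between replicates (0.26), log2(TPM + 1) moved 5 and centring on BACL LB GPiPSC moved 20. The causes of these shifts were not tested. A shift of the 49 untested members was not detectable at this depth.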
